A study of Arabidopsis thaliana with 6 samples.

Results

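The genes described here are 20 plastid genes of Arabidopsis thaliana for the machinery that reads and translates the plastid's own genome. They comprise 4 subunits of the plastid RNA polymerase (rpo genes), the maturase gene matK, 8 proteins of the small ribosomal subunit (rps genes) and 7 proteins of the large subunit (rpl genes). They were chosen by symbol alone, as all probe sets with a single annotated gene whose symbol is lower-case rpo followed by a capital letter, rps or rpl followed by a number, or matK. They stand for 20 of the 9532 genes that a probe set names alone, on 20 of the 17159 probe sets in the deposited table. All 20 lie on the plastid genome and 0 on the mitochondrial genome in the RefSeq gene table, which lists 26 such plastid gene symbols. A further 11 probe sets are annotated with several genes, at least 1 of them with such a symbol, and were not used. Some of the names (rps3, rps4, rps14, rps19, rpl16) are also borne by mitochondrial genes, and the plastid ones are meant throughout.

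The mutant embryos carried dcl1-15 on both copies of DCL1 (dcl1-15/dcl1-15) and were picked from siliques of DCL1/dcl1-15 plants in which the normal siblings had reached the torpedo stage, when the cotyledons elongate. They were compared with torpedo-stage embryos of DCL1/DCL1 siblings, called wild type here. Both carry Ws crossed back repeatedly to Landsberg erecta, each sample pools 300 embryos, and 3 single-colour arrays were made per genotype. The product of DCL1, a Dicer-like ribonuclease, releases most plant microRNAs from their precursors. Only 1 mutant allele was used, and the mother plants differed in genotype between the groups. DCL1 transcript levels are not analysed here.

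Plastids descend from a photosynthetic bacterium and keep a small genome. It is transcribed by a bacterial-type polymerase, whose core subunits are the plastid genes rpoA, rpoB, rpoC1 and rpoC2, and by phage-type polymerases encoded in the nucleus. The plastid ribosome is likewise of mixed origin, with some proteins encoded in the plastid and the others in the nucleus. Neighbouring plastid genes are often copied into shared transcripts that are later cut and spliced, so neighbouring genes are not independent measurements. Plastids of torpedo-stage embryos turn green, and plastid translation is needed for Arabidopsis embryos to develop.

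Values are normalized log2 values, and a difference is the dcl1-15 mean less the wild-type mean, in log2 units. A gene is said to have risen or fallen only where limma gave an adjusted p under 0.05 over the 17122 probe sets tested. The array medians lay between 6.34 and 6.48. The arrays numbered 1 deviated from the others in the same direction in both genotypes (r = 0.48 over all probe sets), and results that turn on them are given with and without them. Values near log2 of 2 are at the low end of the scale, with no stated distance from background. The 6 embryo genes listed as markers all changed, while 39.1% of all probe sets tested did. Of the 6, 4 rose and 2 fell, by widely different amounts, against 18.3% and 20.8% of all probe sets. The seed storage protein genes AT1G03890 and PAP85 rose most. AT1G03890 measured 10.54 to 10.69 in dcl1-15 and 1.97 to 2.90 in wild type, a difference of 8.03, and PAP85 12.01 to 12.12 in dcl1-15 and 4.64 to 7.97 in wild type, a difference of 6.14. The organ polarity gene YAB3 fell by 3.90, at 6.44 to 7.31 in dcl1-15 and 10.47 to 11.04 in wild type, and the embryo regulator BBM fell by 1.59, at 3.75 to 3.98 in dcl1-15 and 5.003 to 6.02 in wild type. The smallest change was that of the oil body gene OLEO3, which measured 12.85 to 12.95 in dcl1-15 and 12.003 to 12.41 in wild type. Because whole embryos were pooled, fewer plastids or plastid-rich cells and less RNA per cell or plastid cannot be told apart.

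Of the 20 genes, 10 fell in dcl1-15 embryos and 0 rose, while 20.8% of all probe sets tested fell, 18.3% rose and 39.1% changed in either direction. At an unadjusted p under 0.05 the count was also 10, while 8322 of the 17122 probe sets tested passed that limit in either direction. Welch's test called 3 lower and 0 higher, against 6.34% of all probe sets lower under that test. The genes that fell were rpoC1, rpoB, matK, rps18, rps16, rps15, rpl16, rpl20, rpl14 and rpl33. The median difference was -0.52 over the 20 genes, against -0.07 over all probe sets, and 18 of the 20 differences were negative. In 9 of the 20 genes all dcl1-15 arrays lay below all wild-type arrays, which holds for 28.5% of all probe sets. Of the 20, 6 fell by at least 2-fold, against 11.1% of all probe sets. The count of 10 depends on single arrays, with 6 genes called without dcl1-15 replicate 2 or without wild-type replicate 3. The share of all probe sets that fell was then 13.4% and 16.2%. The count was 14 without wild-type replicate 1, against 26.1% of all probe sets, and 13 without both arrays numbered 1, against 28.7%. It was 3 without both arrays numbered 2 or both numbered 3, against 6.81% and 8.46%.

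**Figure D1:**
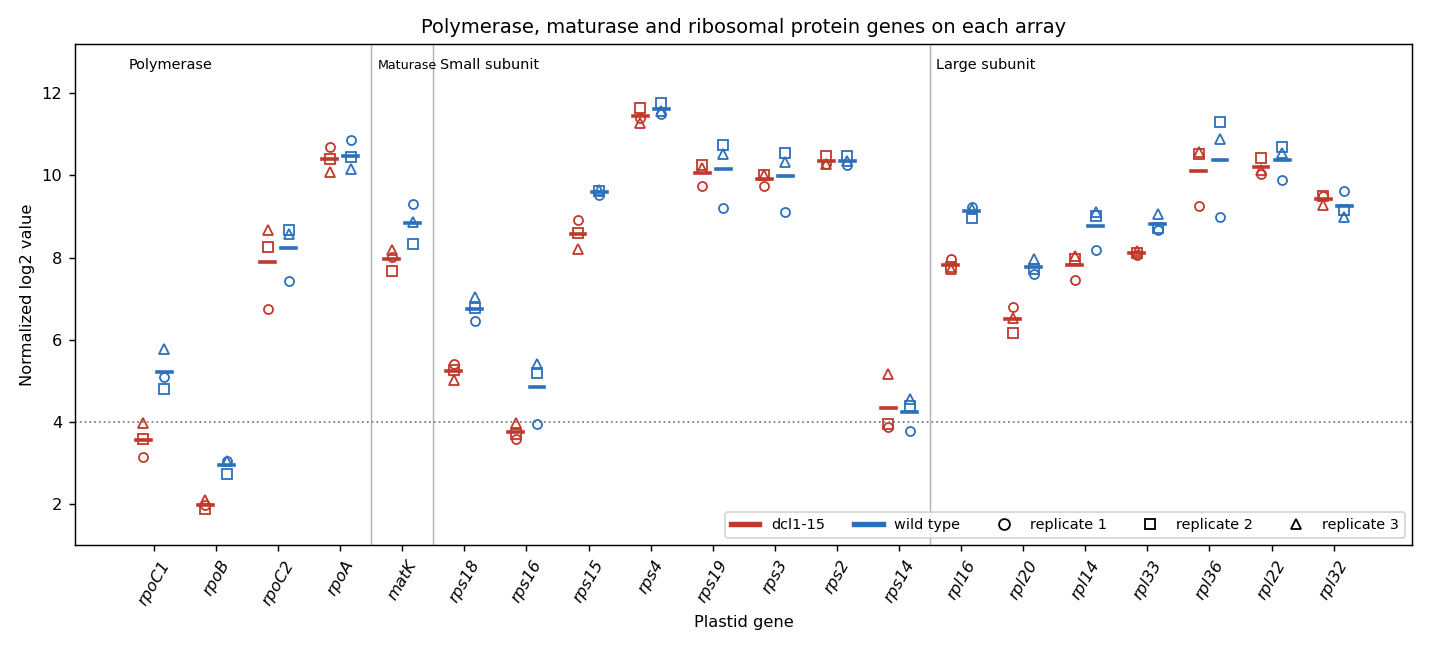
Normalized log2 values of the 20 plastid genes (vertical axis) on each array, dcl1-15 in red to the left and wild type in blue to the right of each gene, with symbols for the replicate numbers, bars for the genotype means and a dotted line at log2 of 4. The red and blue points separate fully in 9 genes, rpoB lies below the dotted line on all 6 arrays, and wild-type replicate 1 (blue circle) lies well below the other wild-type arrays for rps19, rps3 and rpl36.

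Among the polymerase genes, 2 of 4 fell. The gene rpoC1, which encodes the amino-terminal part of the split catalytic beta-prime subunit, measured 3.16, 3.57 and 3.97 in dcl1-15 embryos, against 5.10, 4.80 and 5.76 in wild type. The difference in the normalized values was -1.65 ± 0.32 (SE) or 3.15-fold (limma adjusted p = 0.00425), the largest fall of the 20 genes there. All dcl1-15 values were under log2 of 4. Raising values to that level as a minimum gave a difference of -1.22, smaller than those of rps18, rpl16 and rpl20, and without both arrays numbered 1 it was -1.51, against -1.76 for rps18. The gene for the beta subunit, rpoB, measured 1.97, 1.88 and 2.09 in dcl1-15, against 3.06, 2.72 and 3.05 in wild type. Its difference was -0.96 ± 0.16 (adjusted p = 0.00185). All values of rpoB were dim, and a floor at log2 of 4 sets the difference to 0, although the groups do not overlap.

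The remaining polymerase genes did not pass. The gene rpoC2, for the carboxy-terminal part of the split subunit, measured 6.75, 8.27 and 8.67 in dcl1-15 and 7.44, 8.67 and 8.59 in wild type, with the arrays numbered 1 lowest in both genotypes. Its 95% confidence interval of -1.49 to 0.82 includes falls as large as that of rpoB. The alpha subunit gene rpoA measured 10.70, 10.40 and 10.08 in dcl1-15 and 10.85, 10.45 and 10.15 in wild type. Its difference was -0.10, with an interval of -0.58 to 0.39, which does not include the falls of rpoB and rpoC1. Whether the subunit genes differ from each other was not tested.

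The maturase gene matK, which lies inside the intron of a lysine transfer RNA gene and whose product helps to splice plastid introns, fell. It measured 8.003, 7.67 and 8.19 in dcl1-15 embryos, against 9.31, 8.33 and 8.88 in wild type. The highest dcl1-15 value lay just under the lowest wild-type value. The fall was -0.89 ± 0.27 (SE), or 1.85-fold (limma adjusted p = 0.0311), and was called under 8 of 16 alternative settings, with adjusted p-values of 0.00541 to 0.165.

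Of the 8 small-subunit genes, 3 fell, namely rps18, rps16 and rps15. The gene rps18 measured 5.40, 5.26 and 5.02 in dcl1-15, against 6.46, 6.77 and 7.04 in wild type. It fell by 1.53 ± 0.26 on the log2 scale, or 2.89-fold (adjusted p = 0.00207), and the groups lay more than 1 log2 unit apart. The protein of rps15 binds the small ribosomal RNA early in subunit assembly in bacteria. Its gene measured 8.91, 8.60 and 8.20 in dcl1-15, against 9.53, 9.63 and 9.65 in wild type. It fell by 1.04 ± 0.20 on the log2 scale (adjusted p = 0.00423). The wild-type arrays were nearly equal and every dcl1-15 array was lower.

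The third, rps16, is the least secure of the 10 falls. It measured 3.59, 3.71 and 3.97 in dcl1-15, against 3.95, 5.18 and 5.42 in wild type. Wild-type replicate 1 lies among the dcl1-15 values, so the groups overlap. The difference was -1.09 ± 0.38 (adjusted p = 0.0469), and rps16 was called under 6 of 16 alternative settings. Without wild-type replicate 1 its difference was -1.55 (limma adjusted p = 4.86e-04). Without both arrays numbered 1 it was -1.46 (limma adjusted p = 1.79e-04).

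The other 5 small-subunit genes did not pass, and they differ in how tightly the arrays bound a change. The gene rps2 measured 10.28, 10.47 and 10.28 in dcl1-15 and 10.24, 10.46 and 10.35 in wild type, a difference of -0.004 with a 95% interval of -0.29 to 0.28. In bacteria the protein of rps4 starts small-subunit assembly. The plastid gene measured 11.40, 11.64 and 11.28 in dcl1-15 and 11.49, 11.77 and 11.58 in wild type, with an interval of -0.45 to 0.11. Falls of the size seen in rps15 or rps18 lie outside both intervals. The dim gene rps14 measured 3.88, 3.95 and 5.17 in dcl1-15 and 3.77, 4.39 and 4.56 in wild type, and its interval of -0.78 to 0.97 bounds little.

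For rps3 and rps19, proteins of the head of the small subunit, the wild-type arrays disagreed among themselves. The gene rps19 measured 9.75, 10.25 and 10.19 in dcl1-15 and 9.20, 10.73 and 10.53 in wild type. In rps3 the values were 9.73, 10.00 and 10.01 in dcl1-15 and 9.10, 10.54 and 10.32 in wild type. In both genes wild-type replicate 1 was the lowest of all 6 arrays and the other wild-type arrays were the highest. The differences were -0.09 ± 0.36 and -0.07 ± 0.33. Without wild-type replicate 1 they were -0.57 (adjusted p = 0.0191) for rps19 and -0.51 (adjusted p = 0.0167) for rps3, and both passed. Without both arrays numbered 1 they also passed, at -0.41 (limma adjusted p = 0.0210) for rps19 and -0.42 (limma adjusted p = 0.0227) for rps3.

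Of the 7 large-subunit genes, 4 fell. The gene rpl16, whose protein binds the large ribosomal RNA near the transfer RNA sites in bacteria, measured 7.96, 7.77 and 7.73 in dcl1-15 embryos, against 9.23, 8.96 and 9.18 in wild type. It fell by 1.31 ± 0.18 (SE), or 2.47-fold (limma adjusted p = 7.21e-04). It was the single gene of the 20 called lower under all 16 alternative settings, Welch's test included. The gene rpl20, for a protein that binds the large ribosomal RNA early in assembly in bacteria, measured 6.80, 6.17 and 6.52 in dcl1-15, against 7.60, 7.72 and 7.97 in wild type. It fell by 1.27 ± 0.24, or 2.41-fold (adjusted p = 0.00406), with no overlap.

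The smaller falls of the large subunit were those of rpl14 and rpl33. The gene rpl14, for a protein at the interface between the subunits, measured 7.46, 7.97 and 8.05 in dcl1-15, against 8.19, 9.02 and 9.11 in wild type, a difference of -0.95 ± 0.29 (adjusted p = 0.0294). Again the replicate 1 array was the lowest of each genotype. Without wild-type replicate 1 the difference of rpl14 was -1.24 (limma adjusted p = 0.00119). Without both arrays numbered 1 it was -1.05 (limma adjusted p = 2.65e-04). In tobacco, plants without plastid rpl33 grow normally except in the cold. The Arabidopsis rpl33 measured 8.06, 8.12 and 8.17 in dcl1-15, against 8.67, 8.71 and 9.06 in wild type, a difference of -0.70 ± 0.18 (adjusted p = 0.0162). rpl14 was called under 7 and rpl33 under 11 of 16 alternative settings.

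The remaining large-subunit genes, rpl36, rpl22 and rpl32, did not pass. The gene rpl36 measured 9.26, 10.52 and 10.56 in dcl1-15 and 8.98, 11.29 and 10.89 in wild type, and the replicate 1 arrays were lowest in both genotypes by more than 1 log2 unit. Its interval of -1.58 to 1.03 was the widest of the 20 genes. The gene rpl22, for a protein lining the exit tunnel, measured 10.05, 10.43 and 10.14 in dcl1-15 and 9.89, 10.69 and 10.54 in wild type. Without wild-type replicate 1 both passed, rpl36 at -0.98 (adjusted p = 0.0338) and rpl22 at -0.41 (adjusted p = 0.0423). Without both arrays numbered 1, rpl36 passed at -0.55 (limma adjusted p = 0.00664) and rpl22 did not, at -0.33 (limma adjusted p = 0.0685). The gene rpl32 measured 9.50, 9.50 and 9.28 in dcl1-15 and 9.62, 9.16 and 8.98 in wild type, and had the largest positive difference of the 20, 0.18, with an interval of -0.26 to 0.62.

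**Figure D2:**
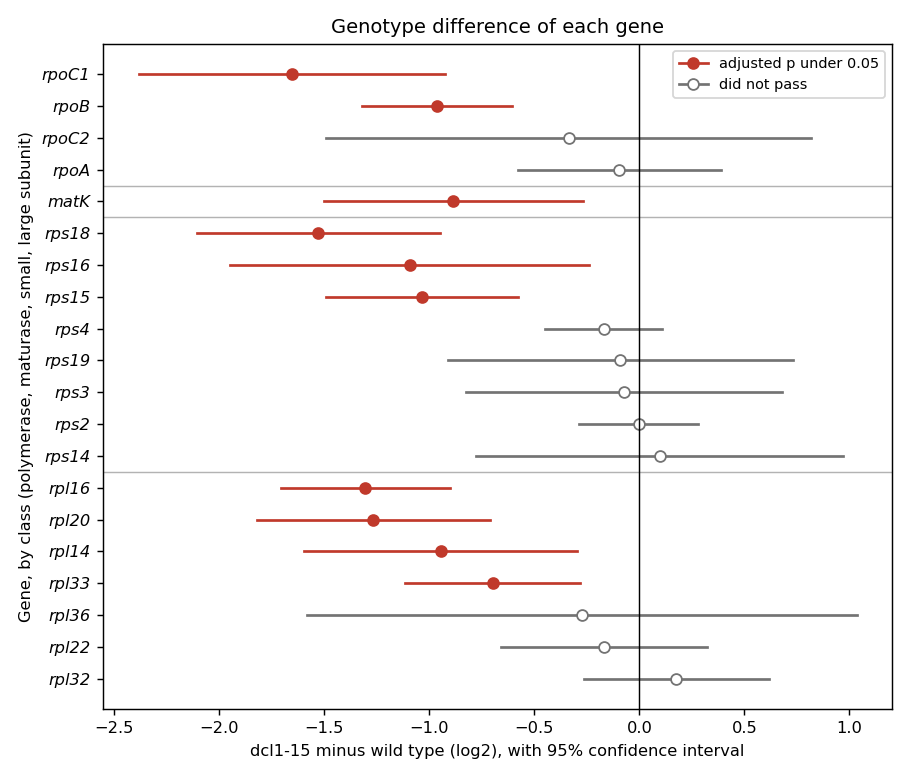
Difference of each gene between dcl1-15 and wild type (horizontal axis, log2, negative means lower in dcl1-15) with its 95% confidence interval, grouped by class from polymerase at the top to large subunit at the bottom. The 10 filled red genes passed at an adjusted p under 0.05, and each class holds genes that fell beside genes near 0, except the lone maturase gene.

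Between the classes the shares that fell were 2 of 4 polymerase, 3 of 8 small-subunit and 4 of 7 large-subunit genes, with matK besides. The median differences were -0.65, -0.13 and -0.70 in the same order. With so few genes per class, several of which share transcripts, these are descriptions, and no class was shown to differ from another. Of the 10 genes that did not pass, 8 had an interval that excluded a 2-fold fall, and 3 had an interval within 1.5-fold either way.

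In gene order along the plastid genome the falls came both in runs and alone. The neighbours rpl33, rps18 and rpl20 all fell, 3 of 3, by 0.70 to 1.53. In the run rpoB, rpoC1, rpoC2 and rps2, which is read in that order, the first pair fell, at -0.96 and -1.65, while rpoC2 and rps2 stood at -0.34 and -0.004 and did not pass. In the ribosomal protein cluster that holds rps19, rpl22, rps3, rpl16, rpl14, rpl36 and rpoA, 2 of 7 measured genes fell, the adjacent rpl16 and rpl14. Wild-type replicate 1 was the lowest wild-type array for 5 of these 7 genes, all but rpl16 and rpoA. The genes matK and rps16, which are next to each other, both fell.

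Photosynthesis genes beside these genes gave mixed values. The gene ndhH, for a subunit of the NADH dehydrogenase-like complex, lies next to rps15 and fell by 0.90 (adjusted p = 0.0189), at 2.69 to 3.32 in dcl1-15 and 3.56 to 4.19 in wild type. Next to rps14, psaB of photosystem I had a difference of 0.18 (adjusted p = 0.415), close to the 0.10 of rps14. The gene atpI of the ATP synthase, next to rps2, had -0.52 (adjusted p = 0.0696), and psaJ, next to rpl33, -0.48 (adjusted p = 0.375). The photosynthesis gene petD, for a subunit of the cytochrome b6f complex, is next to rpoA in gene order, on the other strand, and had the most negative difference of the 46 photosynthesis genes, -1.15 (adjusted p = 0.0854), against -0.10 for rpoA. The protease gene clpP, beyond rpl20, had a difference of -0.06 with an interval of -0.35 to 0.22.

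**Figure D3:**
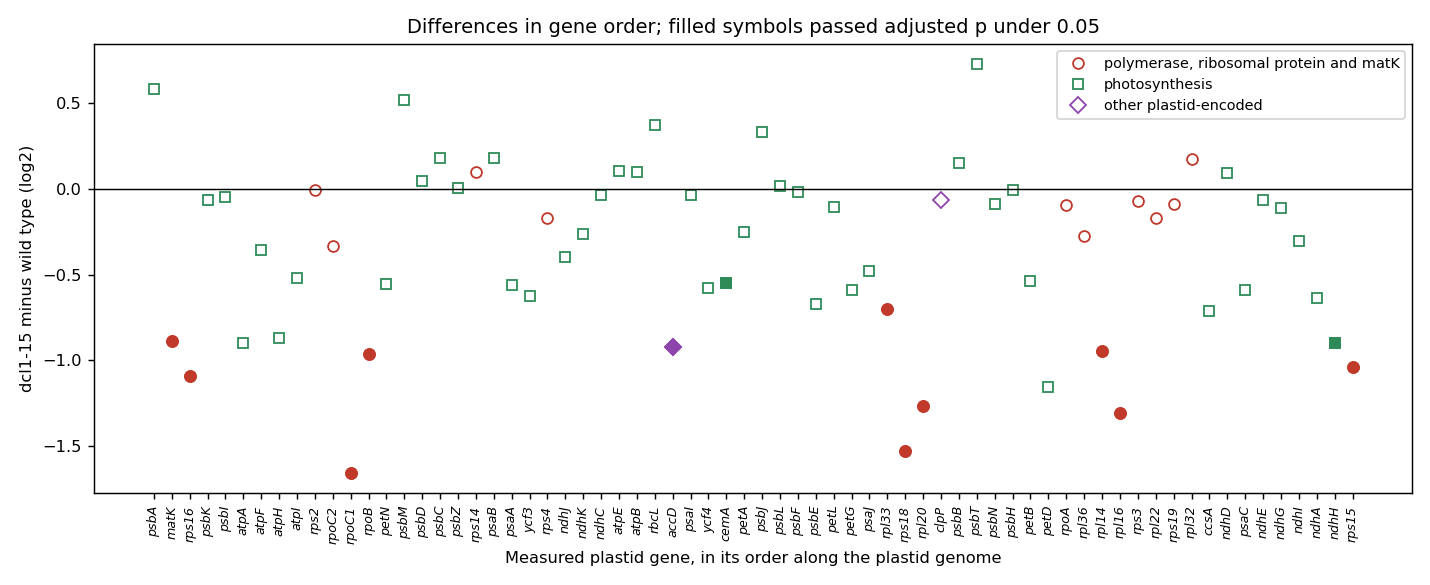
Difference between dcl1-15 and wild type (vertical axis, log2) of every measured plastid gene with its own probe set, in gene order along the plastid genome, with filled symbols for adjusted p under 0.05. Of 13 filled symbols 10 are red circles, the polymerase, ribosomal protein and matK genes, and rpl33, rps18 and rpl20 form a run of falls.

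Of 46 photosynthesis genes 2 fell, ndhH and cemA, an envelope membrane protein gene, by 0.90 and 0.55, and 0 rose. Of all probe sets 20.8% fell and 18.3% rose. At an unadjusted p under 0.05 the count was 10 in either direction, against 8322 of the 17122 probe sets tested. Welch's test called 0 of these 46 genes. Their median difference was -0.11, against -0.52 for the 20 genes and -0.07 for all probe sets. This contrast was not tested, and the photosynthesis counts vary with the normalization and with the arrays used. With quantile normalization 5 photosynthesis genes fell, against 20.8% of all probe sets. Centring on the reference genes gave 6 falls, against 25.8% of all probe sets. With the replicate number as a block, 12 photosynthesis genes fell and 2 rose, while 26.8% of all probe sets fell. Without wild-type replicate 1, 10 fell and 4 rose, while 26.1% of all probe sets fell. Without both arrays numbered 1, 10 fell and 7 rose, while 28.7% of all probe sets fell. Leaving out dcl1-15 replicate 3 gave 4 falls and 1 rise, while 14.3% of all probe sets fell. Leaving out dcl1-15 replicate 1 gave 1 fall, against 17.2% of all probe sets. With dcl1-15 replicate 2 or wild-type replicate 3 left out there were 0 falls, against 13.4% and 16.2%. A further plastid gene, accD, encodes a subunit of the fatty acid synthesis enzyme acetyl-CoA carboxylase and is read mainly by the nuclear-encoded polymerase. It measured 5.06, 5.06 and 5.83 in dcl1-15, against 6.14, 6.12 and 6.45 in wild type. It fell by 0.92 ± 0.29 (SE; limma adjusted p = 0.0331), and was called under 8 of 16 alternative settings.

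On single arrays, the median of each gene's deviation from its own mean over the 6 arrays was -0.40, -0.34 and -0.25 for the 20 genes in dcl1-15, and 0.09, 0.45 and 0.54 in wild type. All dcl1-15 arrays lay below all wild-type arrays. This also held, at a smaller size, for the medians over all probe sets. They were -0.037, -0.029 and -0.028 in dcl1-15 and -0.004, 0.044 and 0.038 in wild type. For the photosynthesis genes the medians were -0.21, -0.12 and 0.18 in dcl1-15 and 0.13, 0.02 and 0.19 in wild type, and the genotypes overlapped. Wild-type replicate 1 was thus nearest to dcl1-15 for the 20 genes, and it held the lowest wild-type value of 14 of them.

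**Figure D4:**
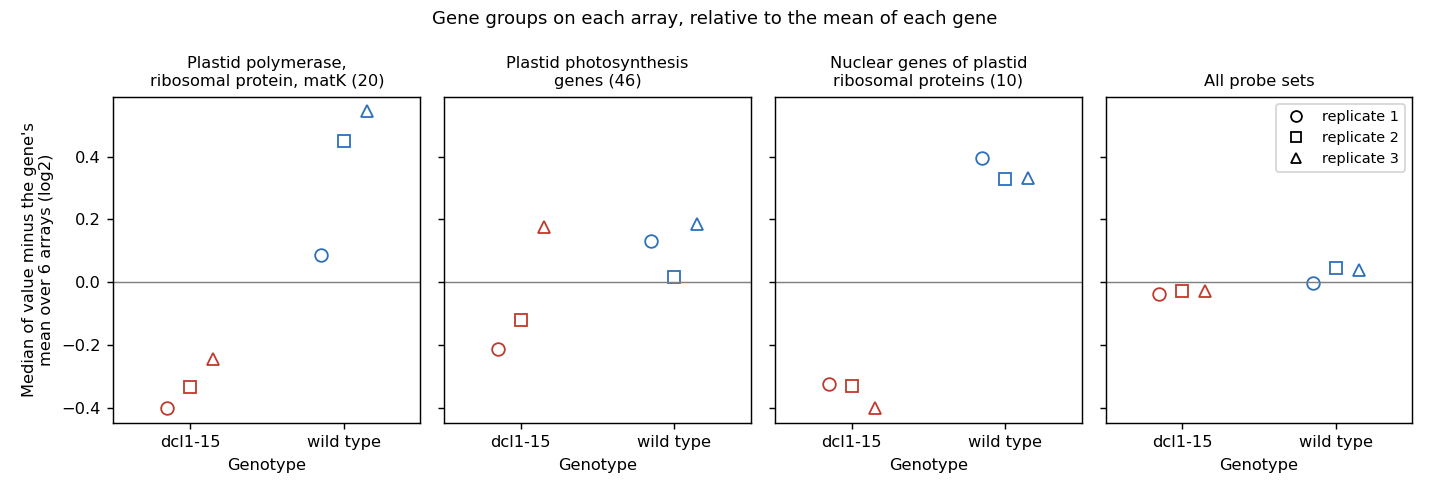
Median over each gene group of the array value minus the gene's mean over the 6 arrays (vertical axis, log2), for each dcl1-15 array (red, left) and wild-type array (blue, right). The genotypes are apart for the 20 plastid polymerase, ribosomal protein and matK genes and for the 10 nuclear genes of plastid ribosomal proteins. They are also apart, by much less, over all probe sets, and overlap for the 46 plastid photosynthesis genes.

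Of 42 listed nuclear genes for plastid ribosomal proteins, 10 are named alone on a probe set of the table, and all 10 fell, with 0 rising, a median of -0.77 and a range of -1.09 to -0.34. Of all probe sets tested 20.8% fell. The groups did not overlap in any of the 10, while 28.5% of all probe sets had every dcl1-15 array below every wild-type array. The largest falls were those of AT4G17560, a large-subunit protein gene (RPL19), and AT5G24490, the ribosome-associated factor PSRP1. AT4G17560 measured 8.13, 8.67 and 8.70 in dcl1-15, against 9.26, 9.44 and 10.08 in wild type, and fell by 1.09 ± 0.25 (adjusted p = 0.00969). PSRP1 measured 10.46, 10.89 and 10.96 in dcl1-15, against 11.33, 11.82 and 12.09 in wild type, and fell by 0.98 ± 0.20 (adjusted p = 0.00600). The count was 6 with a floor at log2 of 4 and 4 with Welch's test, against 13.3% and 6.34% of all probe sets lower. It was 3 and 4 without both arrays numbered 2 and 3, against 6.81% and 8.46%. Of the 10 genes 0 rose under any of the 16 alternatives.

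Of 24 listed nuclear genes for organelle transcription, which cover the phage-type polymerases, the sigma factors and the proteins attached to the plastid polymerase, RPOTmp (AT5G15700) is the 1 gene named alone on a probe set of the table, and the others were not analysed here. It encodes the phage-type polymerase that serves both mitochondria and plastids. It measured 3.54, 3.69 and 3.79 in dcl1-15, against 4.17, 4.88 and 4.26 in wild type, and fell by 0.76 ± 0.25 (adjusted p = 0.0389) at dim values. It was called under 7 of 16 alternatives. No probe set names alone a further nuclear gene with a symbol of RPL or RPS and a number.

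Of 13 probe sets for 9 mitochondrial genes 2 fell (15.4%), against 20.8% of all probe sets, and the median difference was -0.18. The count was 0 without dcl1-15 replicate 1, dcl1-15 replicate 2, wild-type replicate 3 or both arrays numbered 2, with a floor at log2 of 4 and with Welch's test, and 1 without wild-type replicate 1 or 2. The share of all probe sets that fell under these alternatives ranged from 6.34% with Welch's test to 26.1% without wild-type replicate 1. Both falls belong to nad1, a subunit gene of respiratory complex I, whose 5 probe sets disagreed and ranged in difference from -1.33 to 0.11. The smaller fall, with a difference of -0.37, was at the low end of the scale. That probe set measured 1.35 to 1.64 in dcl1-15 and 1.73 to 1.92 in wild type. Of the 13 probe sets, 7 had wild-type means below log2 of 4, so many mitochondrial values are dim.

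**Figure D5:**
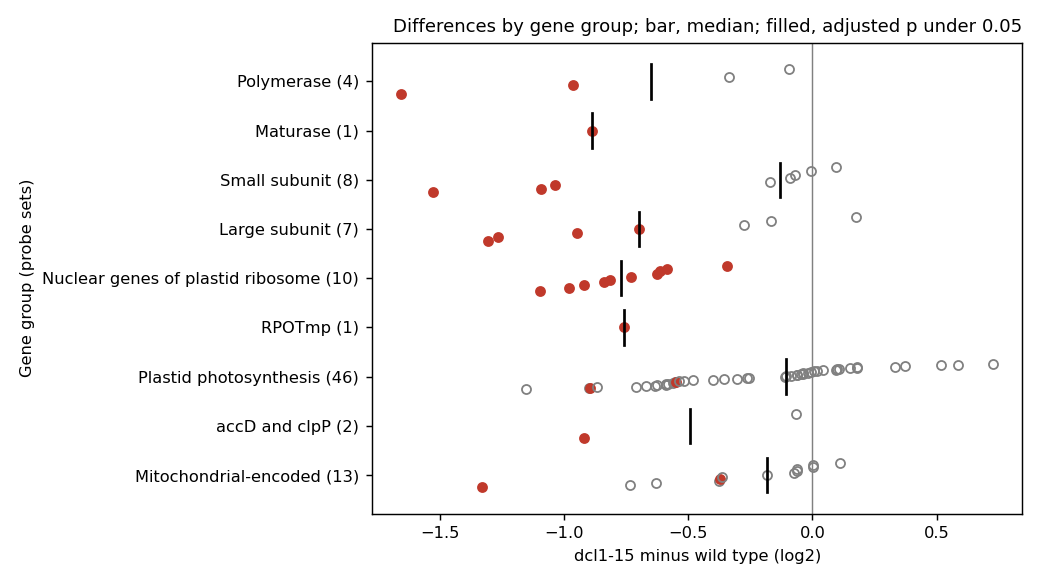
Difference between dcl1-15 and wild type (horizontal axis, log2) of each probe set by gene group, with the number of probe sets in brackets, a bar at the median and filled red points for falls at an adjusted p under 0.05. All 10 nuclear genes of the plastid ribosome fell, against 9 of 19 plastid polymerase and ribosomal protein genes and 2 of 46 plastid photosynthesis genes.

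Markers of the seed coat and endosperm, the tissues around the embryo, moved with genotype too. Of 6 listed markers 5 rose, against 18.3% of all probe sets, most of all DELTA-VPE and BAN by 2.15 and 1.85. The count stayed at 5 under 9 of 16 alternatives. It was 2 with a floor at log2 of 4 and 0 with Welch's test, while 1886 and 997 of the 17122 probe sets tested rose. Without both arrays numbered 3 it was 2, while 1702 of all probe sets rose. Without dcl1-15 replicate 2 or dcl1-15 replicate 3 it was 3, while 2193 and 2387 rose. The summed linear value of the 6 markers was 5917 to 6927 on the dcl1-15 arrays and 2297 to 2612 on the wild-type arrays. The dimmest, BAN and AT5G26630, measured 3.90 to 4.91 and 2.26 to 2.60 in dcl1-15, and 1.53 to 3.65 and 2.50 to 2.75 in wild type. Their part in the falls of the plastid genes was not tested.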

How the data were processed

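RNA of 6 pools of embryos was amplified, biotin-labelled and hybridized to single-colour oligonucleotide arrays, 3 per genotype, per the labels' protocols. The deposited table holds normalized log2 values. GCRMA and MAS5 are named in the submitters' processing notes, without versions or roles, and the choice of rows is not explained in the labels. The 37 control probe sets were removed and 17122 tested. The platform annotation names 1 gene for 9631 of them, several for 365 and none for 7126. Of the 9631, 9584 were matched by gene identifier to RefSeq genes of assembly TAIR10.1, used for names, organelle and gene order. A further 13 were assigned to the mitochondrial genome by symbol. Gene order was taken from TAIR10.1, and coordinates are not given.

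The dcl1-15 and wild-type arrays were fitted over all probe sets by limma (version 3.58.1, R 4.3.3, lmFit and trended eBayes), with Benjamini-Hochberg adjustment and a threshold of 0.05. The script was tested on simulated data. With 3 arrays per genotype, their number limits precision. The 16 alternatives were quantile normalization, centring on 2 reference genes, a floor or minimum mean at log2 of 4, no trend, a replicate block, Welch's test and leaving out arrays. Same-numbered arrays deviated together (r = 0.48, 0.21 and 0.36). Some arrays with different numbers also did. Their values were 0.31 for dcl1-15 replicate 3 with wild-type replicate 2, and 0.15 for dcl1-15 replicate 2 with wild-type replicate 3. By these data, not the labels, the numbers were treated as pairs only among the alternatives, as a block and in leaving out same-numbered arrays. The reported fit, with its p-values and counts, did not pair the samples. Every one of the 20 genes was named, and of each comparison list the 2 largest changes in each direction among those past the threshold. Neighbours in gene order were also named, and OLEO3, petD and AT5G26630 after their values were seen. Genes and lists were chosen with earlier results of these data known. The seed coat and embryo markers came from an earlier analysis of these data, which had seen some of their values.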

Additional observations from a re-analysis of the deposited data

How the results depend on the processing

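The count of 10 falls among the 20 plastid genes was 6 with a floor at log2 of 4 and 3 with Welch's test, and 9 or 10 under the other alternatives that kept all arrays. With 1 array or 1 replicate number left out it ranged from 3 to 14. Without wild-type replicate 1 all 10 genes were still called and 4 were added, rpl36, rpl22, rps19 and rps3. Without both arrays numbered 1 the 10 were again called, and rpl36, rps19 and rps3 were added. Without both arrays numbered 2 or both numbered 3, 3 of the 10 were still called. In both cases rpoC1, rpoB and rpl16 were the ones called. No gene rose under any alternative. The polymerase count of 2 was 1 with the floor, 1 with Welch's test and 1 among probe sets with a mean of at least log2 of 4, and stayed at 2 with arrays left out. For rpoB the floor or that minimum leaves nothing to test. The small-subunit count of 3 was 1 with Welch's test and ranged from 0 to 5 with arrays left out. The large-subunit count of 4 was 1 with Welch's test and ranged from 1 to 6. Leaving arrays out also moved the number of calls over all probe sets, in both directions. The 3562 lower calls of the reported fit became 4915 without both arrays numbered 1 and 1166 without both numbered 2. The cause was not tested. The replicate block called the same 10 genes, and for the comparison lists it changed the photosynthesis count given above and the mitochondrial count, to 3 falls. Of 319 values of single genes under alternatives, 270 kept their side of the threshold, 42 lost a call and 7 gained one. Centring on the reference genes moved the median difference of all probe sets from -0.07 to -0.20 and the share of higher calls from 46.9% to 36.1%, and called the same 10 of the 20 genes. Dim values limit rpoB, rpoC1, rps16 and rps14.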
